A study of Mus musculus with 40 samples.

Results

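The 9 genes described here, *Il7r*, *Lta*, *Ltb*, *Rag1*, *Rag2*, *Dntt*, *Ccr9*, *Ikzf1* and *Ebf1*, are genes of lymphoid progenitors. They were taken by symbol from the 26411 genes of the count tables, and all 9 were found. RNA had been sequenced from 16 samples of E14.5 fetal liver LSK cells, which are sorted as negative for lineage markers and positive for SCA-1 and c-KIT and so hold hematopoietic stem cells and multipotent progenitors. The 4 genotypes, with 4 fetuses each, were WT, homozygotes for the *Kat6b* mutation (*Kat6b E/E*), homozygotes for the *Kat6a* mutation (*Kat6a E/E*) and homozygotes for both (*Kat6a E/E;Kat6b E/E*, called the double mutant). E stands for an engineered change of glycine to glutamic acid in the acetyltransferase domain (G656E in KAT6A and G577E in KAT6B), present in the germline and therefore in every cell of the fetus. All these mice were on a C57BL/6J background and received no treatment. For levels only, 24 whole E9.5 embryos of 6 genotypes were read as well. These were the same 4 genotypes and homozygotes for a null allele of *Kat6a* (cfd/cfd) or of *Kat6b* (dec/dec). The null strains were kept on a C57BL/6 background. The question was whether loss of the acetyltransferase activity of KAT6A, KAT6B or both changed RNA levels in the LSK cells.

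In the bone marrow and fetal liver a small share of multipotent progenitors begins to transcribe lymphoid genes before any lymphocyte exists. Such progenitors carry FLT3 and begin to express *Rag1* and *Il7r*, the receptor through which IL-7 keeps early lymphoid progenitors alive. *Ikzf1*, which encodes Ikaros, acts upstream of lymphoid priming, and *Ebf1* commits cells to the B lineage. *Rag1*, *Rag2* and *Dntt* encode the enzymes that cut and extend antigen receptor genes. *Ccr9* guides progenitors to the thymus, and *Lta* and *Ltb* encode the lymphotoxin subunits needed to form lymphoid organs.

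Homozygosity for the *Kat6a* point mutation was accompanied by lower RNA of 5 of the 8 genes that could be tested. Of all genes tested, 1.36% passed the limma test (FDR under 0.05) in this comparison. The genes described were chosen with earlier results of these data known. The count depended on the model and was 0 in several other settings, among them 2 surrogate variables, no litter block and DESeq2. Against WT, *Rag1* was 2.76-fold lower, *Ccr9* 2.36-fold lower, *Il7r* 1.83-fold lower, *Rag2* 1.49-fold lower and *Lta* 3.51-fold lower in *Kat6a E/E* LSK cells, the last from a log2 fold change of -1.81 that was -0.72 in edgeR without surrogate variables and in DESeq2. *Ebf1* was 3.52-fold lower, a difference that did not pass the test (FDR=0.149, limma). *Ltb* and *Ikzf1* did not pass the test either, and *Dntt* had almost no counts. None of the 8 genes passed the test in *Kat6b E/E* or in the double mutant against WT, comparisons that share the 4 WT libraries. In both, 0% of all genes passed. Fewer cells of a type and less RNA per cell cannot be told apart in such bulk samples.

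The libraries held between 12270376 and 59216547 gene counts (median 21709236). A level is given in CPM, which are counts relative to library size after TMM scaling, and means are followed by the SD with n=4. A log2 fold change and its SE come from a limma model with 4 surrogate variables (unlabelled sources of variation estimated from the data) and litter as a random block, and FDR values were adjusted by Benjamini-Hochberg over 13071 genes. Genes with FDR under 0.05 are called. In 4 libraries, *Kat6a E/E* replicate 2 and double mutant replicates 2, 3 and 4, only 12600 to 13683 genes were detected, against 16082 to 17647 in the other 12, so results are also given without them. The 3 double mutants came from 1 litter with no other genotype, so that litter and the sparse detection cannot be told apart from the genotype in these fetuses. All 10 LSK marker genes were detected in every library. Double mutant replicates 2, 3 and 4 stood apart in the sums of erythroid and granulocyte markers as well. They held 8904 to 15579 CPM of erythroid markers (WT 999 to 4034, *Kat6b E/E* 1922 to 5526). Of granulocyte markers they held 1280 to 2143 CPM (WT 200 to 548, *Kat6b E/E* 217 to 452). Their 1056 to 1207 CPM of LSK markers lay below WT (1228 to 2046) but overlapped *Kat6b E/E* (1112 to 1689). In *Kat6a E/E* replicate 2 the erythroid, granulocyte and LSK marker sums were 6833, 658 and 1348 CPM. The part of these marker sums in the low levels of members in these libraries was not tested. *Kat6a* itself was at 174 ± 8.35 CPM in WT and 180 ± 5.63 CPM in *Kat6a E/E*, and *Kat6b* at 35.6 ± 3.40 CPM in WT and 31.1 ± 6.61 CPM in *Kat6b E/E*. A count per gene cannot show the point mutations, so these levels do not check the labels.

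**Figure D1:**
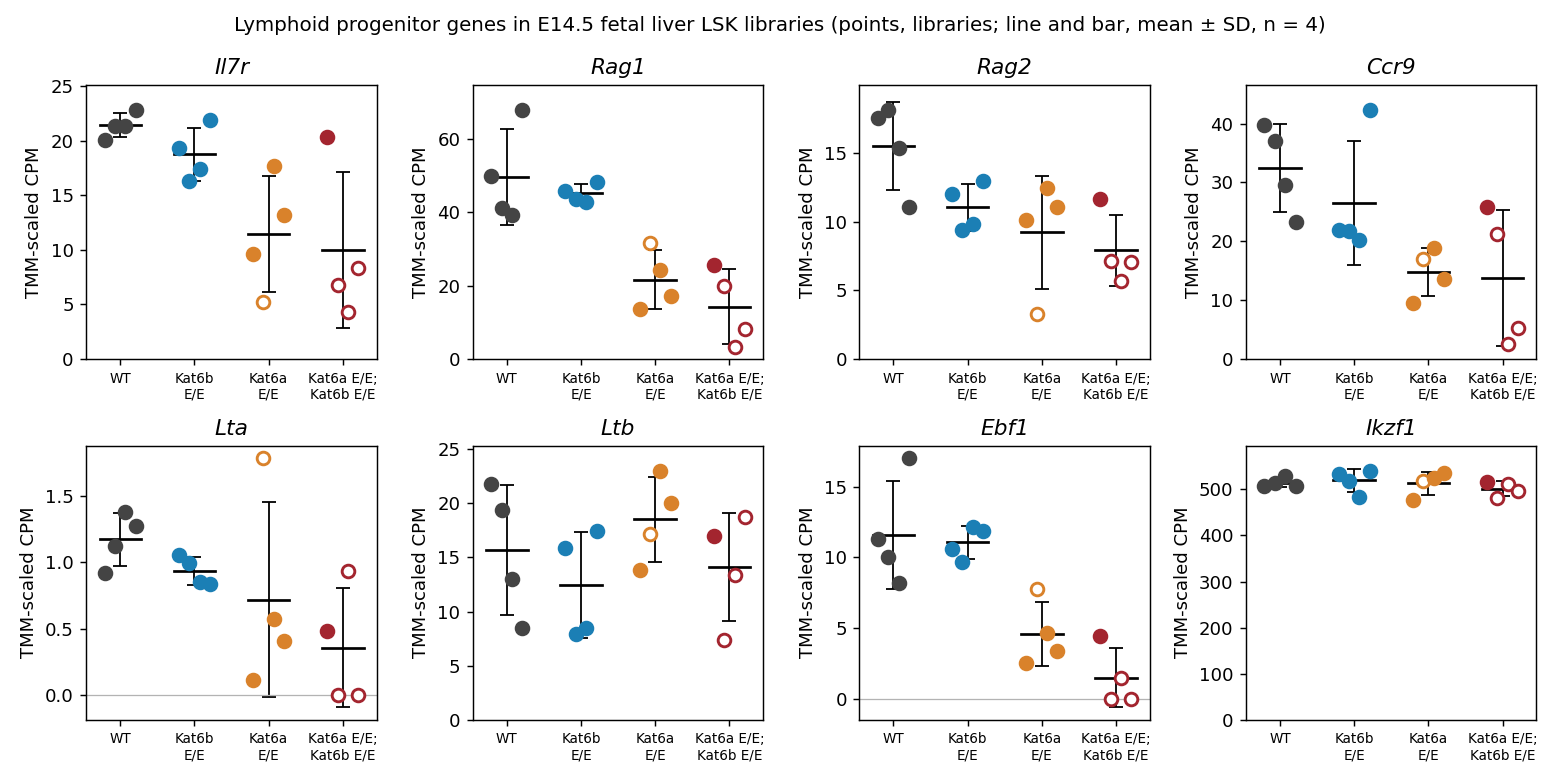
TMM-scaled CPM (vertical axes, linear) of the 8 tested genes in each of the 16 LSK libraries by genotype; points are libraries, open points the 4 libraries with few genes detected, lines and bars the mean and SD. All 8 *Rag1* values and all 8 *Ebf1* values with mutant *Kat6a* lie below all 8 values with WT *Kat6a*, whereas *Ikzf1* stays between 477 and 541 CPM.

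Across the whole table, 178 genes or 1.36% were called in *Kat6a E/E* against WT, 96 higher and 82 lower, and that share is the background for the 5 of 8 members called, all lower. The median log2 fold change of the 8 members was -1.05, against -0.012 over all genes tested. Members were chosen with earlier results of these data known, so neither contrast is an independent test of the set. These calls depended on the model. The *Kat6a E/E* count was 5 of 8 with DESeq2 size factors (1.42% of all genes called) and 6 of 8 with 6 surrogate variables (2.04%). Without the 4 libraries of few genes it was 4 of 8 (2.2%). It was 0 with no (0.023%) or 2 surrogate variables (0.383%), without the litter block (0.252%) or with DESeq2 (0.046%). With edgeR's quasi-likelihood test and the surrogate variables it was 1, *Rag1* (0.627%). Few of all genes were thus called where the member count was 0 or 1. In the 15 other settings the log2 fold change of *Rag1* lay between -1.47 and -1.20, that of *Ccr9* between -1.33 and -1.02, that of *Il7r* between -0.98 and -0.56, that of *Rag2* between -0.75 and -0.33 and that of *Lta* between -1.82 and -0.72, so all kept their direction but the sizes of *Lta*, *Rag2* and *Il7r* varied more. The count also fell to 0 without *Kat6a E/E* replicate 1 (0.00756% of all genes called), *Kat6a E/E* replicate 4 (0.325%) or WT replicate 2 (0.189%), each left out alone. It fell to 2 without any one of WT replicates 1, 3 and 4 or *Kat6b E/E* replicates 1, 3 and 4 (0.666% to 1.08%). Without *Kat6a E/E* replicate 2 it was 3 (1.49%). Where the count was 0 or 2, fewer of all genes were called as well, against 1.36% with all libraries.

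*Rag1* encodes the catalytic subunit of the V(D)J recombinase. In GRCm39 it lies on chromosome 2 from 101468603 to 101479877, on the minus strand, and *Rag2*, which encodes the partner subunit, lies 5728 bases away from 101455063 to 101462874 on the plus strand, so both genes are transcribed towards each other. The WT libraries held 50.0, 41.1, 39.2 and 67.9 CPM of *Rag1*, and the *Kat6b E/E* libraries 45.9, 43.6, 42.8 and 48.3 CPM. The *Kat6a E/E* libraries held 13.5, 31.6, 24.3 and 17.2 CPM, and the double mutants 25.7, 19.8, 3.41 and 8.30 CPM. Every library with mutant *Kat6a* was below every library with WT *Kat6a*, a gap between 31.6 and 39.2 CPM. Only 27 of the 13071 genes tested, 0.207%, showed such a separation downwards, and *Ebf1* was the other member among them. Against WT the log2 fold change was -1.46 (SE 0.249, FDR=0.0216, limma) in *Kat6a E/E*, -0.20 (SE 0.263, FDR=1.000) in *Kat6b E/E* and -1.40 (SE 0.370, FDR=0.387) in the double mutant.

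*Rag2* was at 17.6, 18.2, 15.4 and 11.1 CPM in WT and at 10.1, 3.25, 12.5 and 11.1 CPM in *Kat6a E/E*. These groups met at 11.1 to 12.5 CPM, and the lowest value belonged to *Kat6a E/E* replicate 2, a library with few genes detected. The log2 fold change was -0.57 (SE 0.121, FDR=0.0295, limma). Without the 4 libraries of few genes it was -0.47 and was no longer called (FDR=0.0708). *Kat6b E/E* held 12.01, 9.40, 9.86 and 12.97 CPM and the double mutant 11.7, 7.18, 5.71 and 7.10 CPM, with log2 fold changes against WT of -0.16 (FDR=1.000) and -0.40 (FDR=0.726). Per kilobase of the counted gene model, WT LSK cells held 7.43 ± 1.97 CPM of *Rag1* and 4.54 ± 0.939 CPM of *Rag2*. In GENCODE vM39 an exon of *Iftap* on the opposite strand overlaps *Rag2*, and these libraries do not keep strand. *Iftap* itself was at 25.2 ± 3.50 CPM in WT and 22.5 ± 4.56 CPM in *Kat6a E/E* (log2 fold change -0.04, FDR=0.927).

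The bases upstream of the start sites were read for 4 genes, the called neighbours *Rag1* and *Rag2*, *Lta*, and the second of the *Ebf1* start sites. These are RefSeq promoter entries, each printed from 250 bases before the start up to the start, and each was found once by exact match in GRCm39 outside the exons of its own gene. They lie at chr2:101479878-101480127 on the minus strand (*Rag1*), chr2:101454807-101455056 on the plus strand (*Rag2*), chr17:35424328-35424577 on the minus strand (*Lta*) and chr11:44510805-44511054 on the plus strand (*Ebf1*). Capitals mark matches on either strand to an E-box read by E proteins (CAGNTG), a RUNX core (TGTGGT), an Ikaros core (TGGGAA) or the EBF palindrome (TCCC and GGGA with 2 bases between them).
Rag1: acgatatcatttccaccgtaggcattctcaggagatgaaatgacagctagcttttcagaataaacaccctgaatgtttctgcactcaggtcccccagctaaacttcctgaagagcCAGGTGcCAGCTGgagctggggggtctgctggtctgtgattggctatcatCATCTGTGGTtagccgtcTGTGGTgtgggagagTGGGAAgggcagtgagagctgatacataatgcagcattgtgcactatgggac
Rag2: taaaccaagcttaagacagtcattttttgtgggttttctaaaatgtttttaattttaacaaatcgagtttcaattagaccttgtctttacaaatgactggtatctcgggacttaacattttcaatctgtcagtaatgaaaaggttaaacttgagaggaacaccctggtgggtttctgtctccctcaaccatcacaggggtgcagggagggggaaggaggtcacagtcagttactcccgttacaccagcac
Lta: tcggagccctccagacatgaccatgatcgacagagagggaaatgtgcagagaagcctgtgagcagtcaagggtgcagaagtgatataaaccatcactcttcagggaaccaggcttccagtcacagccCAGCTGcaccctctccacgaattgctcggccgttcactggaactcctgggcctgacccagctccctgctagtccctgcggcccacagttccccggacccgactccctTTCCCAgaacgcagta
Ebf1: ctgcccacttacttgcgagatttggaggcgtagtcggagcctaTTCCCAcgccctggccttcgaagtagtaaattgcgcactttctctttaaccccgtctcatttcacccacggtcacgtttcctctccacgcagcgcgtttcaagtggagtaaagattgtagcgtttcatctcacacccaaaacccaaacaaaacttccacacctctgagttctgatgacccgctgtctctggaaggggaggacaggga

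The *Rag1* window held 3 E-boxes that begin 135, 128 and 85 bases before the start, 2 RUNX cores at 81 and 67 bases and an Ikaros core at 52 bases, and the third E-box and the first RUNX core share bases. The *Rag2* window held no match to any of the 4 motifs. The *Lta* window held an E-box at 123 bases and an Ikaros core at 16 bases on the reverse strand, and the *Ebf1* window only an Ikaros core at 207 bases, also on the reverse strand. Of 32841 windows of the same length, 44.82% held the E-box, 21.59% the Ikaros core, 14.05% the RUNX core and 0.7795% the EBF palindrome. All 9 members have an entry, with 11 windows in all, of which 5 held the E-box, 3 the Ikaros core, 2 the RUNX core and 0 the palindrome. These are matches of letters only, and binding was not measured.

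*Dntt*, which encodes the polymerase that adds untemplated bases at antigen receptor joints, lies on chromosome 19 from 41017714 to 41047964. It had 0 counts in 15 of the 16 libraries and 2 counts (0.113 CPM) in *Kat6a E/E* replicate 1. A count of 0 allows a level of up to 0.0523 CPM in the deepest library and 0.256 CPM in the shallowest (3 counts, counting error only). The gene did not pass the count filter, and with 1 value above 0 no test between genotypes can give a difference.

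*Il7r*, the alpha chain of the IL-7 receptor, lies on chromosome 15 from 9505874 to 9530262. WT libraries were close together at 20.1, 21.4, 21.4 and 22.8 CPM. *Kat6a E/E* libraries spread over 9.67, 5.26, 17.7 and 13.2 CPM, all below WT. The log2 fold change was -0.87 (SE 0.183, FDR=0.0299, limma), and it was called without the 4 libraries of few genes as well. *Kat6b E/E* held 19.4, 16.3, 17.4 and 21.9 CPM (log2 fold change -0.10, SE 0.211, FDR=1.000). The double mutant was split, with 20.4 CPM in replicate 1 and 6.80, 4.35 and 8.38 CPM in the 3 libraries with few genes detected, and its log2 fold change was -0.46 (SE 0.268, FDR=0.785). Its mean was 9.98 ± 7.14 CPM, against 21.4 ± 1.12 CPM in WT. In the 15 other settings the log2 fold change ran from -1.10 to -0.04, so its size depended on the model. Of the 8 genes, *Il7r* followed the number of genes detected most closely over the 16 libraries (Pearson r=0.88 on log2 CPM, a description, as genotype, litter and library are shared).

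*Ccr9* encodes the chemokine receptor for CCL25 and lies on chromosome 9 from 123507181 to 123613395. It was at 39.8, 37.1, 29.6 and 23.3 CPM in WT and at 9.55, 17.0, 18.9 and 13.7 CPM in *Kat6a E/E*, with no overlap. The log2 fold change was -1.24 (SE 0.237, FDR=0.0276, limma). *Kat6b E/E* held 21.99, 21.7, 20.2 and 42.3 CPM, with replicate 4 above and the other 3 below the WT range (log2 fold change -0.09, SE 0.258, FDR=1.000). The double mutants held 25.9, 21.2, 2.47 and 5.32 CPM, reaching into the WT range at the top and lying below all other genotypes at the bottom. Their log2 fold change was -0.48 (SE 0.317, FDR=0.824) against WT and 0.76 (SE 0.359, FDR=1.000) against *Kat6a E/E*. In the 15 other settings it ran from -1.42 to -0.21 against WT and from -0.62 to 0.91 against *Kat6a E/E*. The means were 13.7 ± 11.6 CPM in the double mutant, 14.8 ± 4.12 CPM in *Kat6a E/E* and 32.4 ± 7.48 CPM in WT. The annotated *Ccr9* gene shares exon bases with *Slc6a20a* on the opposite strand, which was at 0.111 ± 0.132 CPM in WT.

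*Il7r*, *Rag1*, *Ccr9* and *Ebf1* were the members whose 4 *Kat6a E/E* libraries all lay below the 4 WT libraries, which was so for 2.21% of all genes tested. In *Kat6b E/E* no member did so, with a background of 1.73%, and in the double mutant *Rag1* and *Ebf1* did, with a background of 3%.

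**Figure D2:**
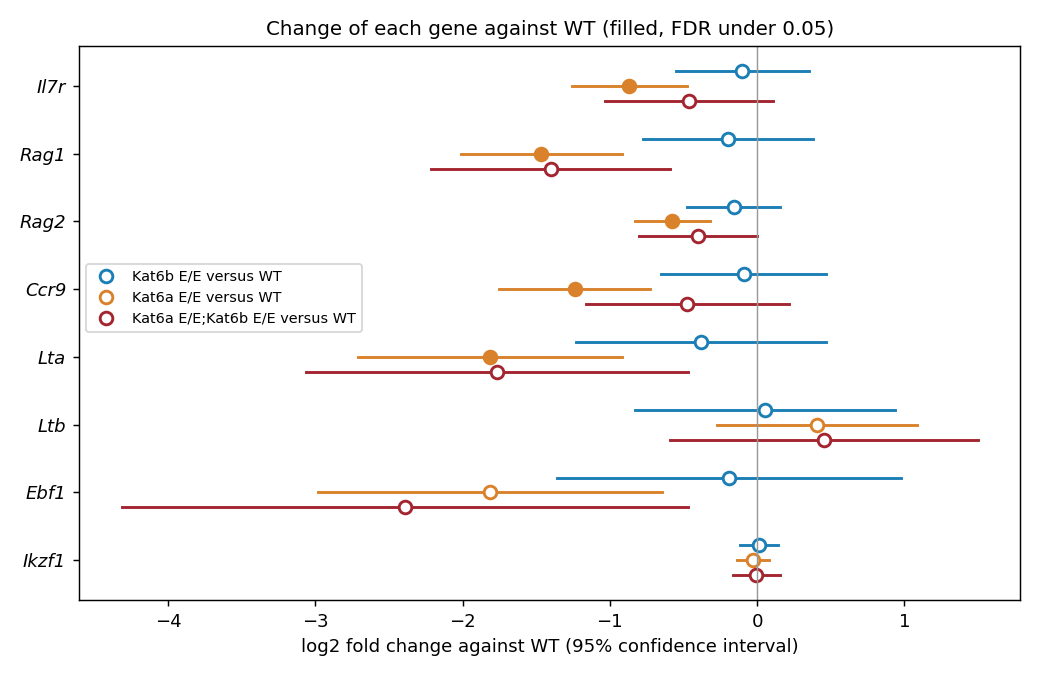
Log2 fold change of each gene against WT (horizontal axis) in the 3 mutant genotypes, with 95% confidence intervals from the limma model and filled points at FDR<0.05. The 5 filled points are *Kat6a E/E* values between -1.81 and -0.57, and the interval of *Ikzf1* in *Kat6a E/E* runs from -0.14 to 0.08.

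*Lta* and *Ltb* lie close together on chromosome 17, *Ltb* from 35413382 to 35415296 on the plus strand and *Lta* from 35422141 to 35424327 on the minus strand, with *Tnf* between them. *Lta* encodes lymphotoxin alpha, and *Ltb* the subunit that anchors it to the membrane. *Lta* was scarce, at 0.922, 1.13, 1.38 and 1.27 CPM in WT from 22 to 73 counts. It was at 0.113, 1.79, 0.572 and 0.405 CPM in *Kat6a E/E*, where replicate 2, a library with few genes, was above all WT libraries and the other 3 were below them. The log2 fold change was -1.81 (SE 0.422, FDR=0.0447, limma), and without the 4 libraries of few genes it was -1.56 and not called (FDR=0.254). The group means were 1.18 ± 0.200 CPM in WT and 0.720 ± 0.737 CPM in *Kat6a E/E*, and without surrogate variables edgeR gave -0.72. *Kat6b E/E* held 1.05, 0.995, 0.855 and 0.839 CPM. In the double mutant it was at 0.486 and 0.937 CPM in replicates 1 and 3 and at 0 in replicates 2 and 4, where a count of 0 allows up to 0.189 and 0.116 CPM. The double mutant was not called (log2 fold change -1.76, SE 0.611, FDR=0.559).

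*Ltb* showed no such pattern. WT libraries held 21.7, 19.4, 13.001 and 8.52 CPM and *Kat6a E/E* libraries 13.8, 17.2, 23.0 and 20.04 CPM, so the groups overlapped over most of their range. The log2 fold change was 0.41 (SE 0.306, FDR=0.669, limma), with a 95% confidence interval from -0.27 to 1.08. It was 0.05 in *Kat6b E/E* (7.96 to 17.4 CPM, FDR=1.000) and 0.45 in the double mutant (7.37 to 18.7 CPM, FDR=0.891). *Tnf*, the inflammatory cytokine gene between them, was at 6.24 ± 1.69 CPM in WT and 6.82 ± 1.91 CPM in *Kat6a E/E* (log2 fold change 0.21, FDR=0.707). Per kilobase, WT LSK cells held 14.3 ± 5.51 CPM of *Ltb* and 0.851 ± 0.145 CPM of *Lta*.

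*Ikzf1* was the most abundant member per kilobase, at 84.8 ± 1.66 CPM per kilobase in WT, and varied least. It lies on chromosome 11 from 11634980 to 11723186. Levels were 508, 514, 529 and 508 CPM in WT, 477, 518, 524 and 535 CPM in *Kat6a E/E*, 534, 519, 484 and 541 CPM in *Kat6b E/E* and 516, 481, 512 and 497 CPM in the double mutant. All groups overlapped. The 95% confidence intervals of the log2 fold change against WT lay within -0.17 and 0.16 in all 3 mutants, the smallest intervals of the 8 genes. Next in WT in per-kilobase order came *Ltb*, then *Rag1*, *Ccr9* at 7.38 ± 1.70, *Il7r* at 6.68 ± 0.347 and *Rag2*, then *Ebf1* at 2.10 ± 0.691 and *Lta*. *Rag1*, *Ccr9* and *Il7r* in this order did not differ beyond their SD.

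*Ebf1*, the B lineage commitment factor, lies on the same chromosome from 44508138 to 44898918. It was at 11.3, 10.01, 8.15 and 17.0 CPM in WT and at 10.6, 9.65, 12.1 and 11.9 CPM in *Kat6b E/E*. It was at 2.54, 7.75, 4.64 and 3.38 CPM in *Kat6a E/E* and at 4.42, 0, 1.45 and 0 CPM in the double mutant. All 8 libraries with mutant *Kat6a* were below the other 8, with a narrow gap between 7.75 and 8.15 CPM. The spread among low counts was wide, and the log2 fold change of -1.81 in *Kat6a E/E* (SE 0.538, FDR=0.149, limma) and -2.39 in the double mutant (SE 0.886, FDR=0.633) did not pass the test. In *Kat6a E/E* it passed without the 4 libraries of few genes (FDR=0.000325) and with 6 surrogate variables. In *Kat6b E/E* the log2 fold change was -0.19 (SE 0.537, FDR=1.000).

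Genotypes with mutant *Kat6a* were also compared with *Kat6b E/E*, whose libraries serve both comparisons. *Kat6a E/E* against *Kat6b E/E* had 270 called genes, 2.07%, and 0 of the 8 members, but 6 members had an unadjusted p under 0.05, against 17.5% of all genes, and edgeR's quasi-likelihood test with surrogate variables called 4, against 9.28% of all genes (*Il7r*, *Rag1*, *Ccr9* and *Ebf1*), while DESeq2 called 0. Those with the lowest FDR were *Rag1* (-1.27, FDR=0.0543) and *Ccr9* (-1.15, FDR=0.0616), while *Ebf1* (-1.62, FDR=0.195) and *Lta* (-1.43, FDR=0.147) had larger differences with wider errors. The count of members called was 1 to 4 without WT replicates 3 (1) or 4 (4), *Kat6b E/E* replicate 1 (1), *Kat6a E/E* replicates 2 (2) or 3 (3), or double mutant replicates 2 (2), 3 (2) or 4 (1), with 0.901% to 9.63% of all genes called in these fits. The double mutant against *Kat6b E/E* had 193 called genes, 1.48%, and 0 members, with 3 at an unadjusted p under 0.05, against 20.8% of all genes, among them *Rag1* (-1.20, FDR=0.0800) and *Ebf1* (-2.20, FDR=0.138). There edgeR with surrogate variables called 2 (*Rag1* and *Ebf1*), against 10.2% of all genes, and DESeq2 called 1 (*Rag1*). Without double mutant replicate 1, 5 members and 22.1% of all genes were called in this comparison. Without WT replicate 4 it was 2 members and 4.38%, without *Kat6a E/E* replicate 2 it was 1 and 1.23%, and without double mutant replicate 2 it was 1 and 0.906%.

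*Kat6b E/E* against WT had 0 called genes (0%) by limma, edgeR and DESeq2, with 364 genes but 0 members at an unadjusted p under 0.05, and the members' log2 fold changes ran from -0.38 for *Lta* to 0.05 for *Ltb*. The widest 95% confidence intervals were those of *Ebf1* (-1.36 to 0.98) and *Ltb* (-0.83 to 0.94), and differences within them were not detectable here. The double mutant against *Kat6a E/E* had 0 called genes (0%) by limma and 62 by DESeq2, of which 0 were members, and 197 genes but 0 members had an unadjusted p under 0.05. The double mutant against WT had 0 called genes (0%) by limma, with 896 at an unadjusted p under 0.05, 262 (2.01%) by DESeq2, and 1 (0.00765%) and 39 (0.298%) by edgeR with and without surrogate variables. Of the members, 3 had an unadjusted p under 0.05 there, against 6.85% of all genes (*Rag1*, *Lta* and *Ebf1*) and DESeq2 called *Rag1*. The departure from additivity, which asks whether the double mutant differs from the sum of both single effects, had 0 called genes (0%) by limma, edgeR and DESeq2, with 652 (4.99%) at an unadjusted p under 0.05, and *Ccr9* was the 1 member with an unadjusted p under 0.05 (0.85, SE 0.385, FDR=0.891).

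The double mutant values rested on 1 library. Without replicate 1, the double mutant with the usual number of genes detected, 5 members were called against WT (*Il7r*, *Lta*, *Rag1*, *Ccr9* and *Ebf1*) with 16.4% of all genes, 2 against *Kat6a E/E* (*Rag1* and *Ebf1*) with 15.1% and 1 in the departure from additivity (*Ebf1*) with 10.9%, which for 8 genes is near the background, and only libraries of few genes from 1 litter were then left in the group. Without replicate 2 instead, 1 member (*Ebf1*) and 0.128% of all genes were called against WT. The sizes varied with the model too. In the 15 other settings the log2 fold change against WT lay between -2.29 and -0.95 for *Rag1* and between -0.97 and -0.17 for *Rag2*. For *Lta* it lay between -3.46 and -1.24, and for *Ebf1* between -5.70 and -1.39.

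Litters could be compared in 2 cases. In the litter that held 3 WT fetuses and *Kat6a E/E* replicate 1, the mutant had 13.5 CPM of *Rag1* against 39.2 to 50.0 in its littermates, 9.55 CPM of *Ccr9* against 29.6 to 39.8, and 9.67 CPM of *Il7r* against 20.1 to 21.4. *Ebf1* was at 2.54 against 8.15 to 11.3 CPM, *Rag2* at 10.1 against 15.4 to 18.2 CPM and *Lta* at 0.113 against 0.922 to 1.38 CPM. The mutant fetus was below all 3 littermates for these genes and for *Ikzf1* (477 against 508 to 529 CPM). *Ltb* at 13.8 CPM lay within the littermates' range of 13.001 to 21.7. The share of all genes for which this fetus lay below its littermates was not computed, so this order has no background to be set against. In the other litter, double mutant replicate 1 had 25.7 CPM of *Rag1* against 45.9 in its *Kat6b E/E* littermate and 4.42 CPM of *Ebf1* against 10.6. *Il7r* (20.4 against 19.4 CPM) and *Ccr9* (25.9 against 21.99 CPM) were not lower in that fetus. With 1 mutant in each litter these are values without a test.

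**Figure D3:**
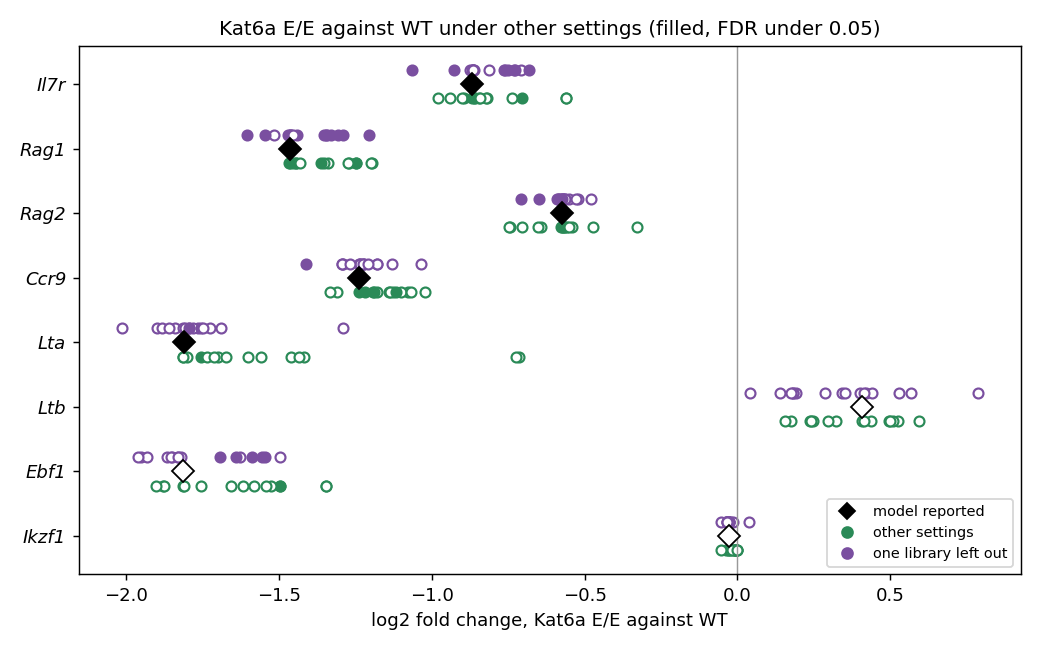
Log2 fold change of *Kat6a E/E* against WT (horizontal axis) for each gene in the model reported (diamonds), in 15 other settings (green) and with each of the 16 LSK libraries left out (purple); filled symbols have FDR<0.05. The values of *Rag1*, *Il7r*, *Rag2*, *Ccr9*, *Lta* and *Ebf1* stay below 0 throughout while many symbols are open.

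Of 19 tested genes of IL-7 receptor and lymphotoxin signalling, 0 were called in *Kat6a E/E* against WT by limma, edgeR or DESeq2, and 2 had an unadjusted p under 0.05, which 12.5% of all genes had in this comparison. *Il2rg*, the second chain of the IL-7 receptor, had a log2 fold change of 0.17 (FDR=0.703), *Jak3* of 0.04 (FDR=0.889) and the lymphotoxin receptor gene *Ltbr* of 0.16 (FDR=0.492). Of 12 tested genes of V(D)J recombination and end joining, which hold RAG cofactors and repair factors, 0 were called by any of the 3 tools, 1 had an unadjusted p under 0.05, and their median log2 fold change was -0.03. Of 34 genes of lymphoid priming, 2 were called, both higher: *Id3*, an inhibitor of E proteins (0.55, FDR=0.0276), and *Irf8*, a factor of monocyte and dendritic cell development (0.45, FDR=0.0299). Neither edgeR nor DESeq2 called a gene of this list there. In this list 14 genes, 41.2%, had an unadjusted p under 0.05. Of the 34, 17 had a negative log2 fold change, and the median was 0.013. *Foxo1* (-0.41, FDR=0.0893) and *Hes1* (-0.76, FDR=0.138) were among the negative ones and were not called. *Flt3* was at 248 ± 78.7 CPM in WT and 275 ± 64.1 CPM in *Kat6a E/E* (log2 fold change 0.31, FDR=0.488).

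Against *Kat6b E/E*, 6 of the 34 genes of the priming list were called higher in *Kat6a E/E*: *Cxcr4* (0.62, FDR=0.0140), *Id2* (0.64, FDR=0.0431), *Spi1* (0.40, FDR=0.0152), *Id1* (0.57, FDR=0.0466), *Id3* (0.79, FDR=0.0188) and *Irf8* (0.53, FDR=0.0317). Of all genes, 2.07% were called there. In this list edgeR called 8 with and 0 without surrogate variables (9.28% and 0.0306% of all genes), and DESeq2 called 4 (1.01%). *Bcl2*, a survival gene downstream of IL-7 signals, was called by limma there too (0.55, FDR=0.0319). In the double mutant against *Kat6b E/E*, *Id2* (1.03, FDR=0.0177), *Cxcr4* (0.53, FDR=0.0401) and *Notch1* (0.49, FDR=0.0460) were called higher, against 1.48% of all genes. In the list edgeR called 6 with and 1 without surrogate variables in that comparison (10.2% and 0.0918% of all genes). DESeq2 called 1 (1.94%). None of the 34 priming genes was called lower in any of the 7 comparisons by limma.

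**Figure D4:**
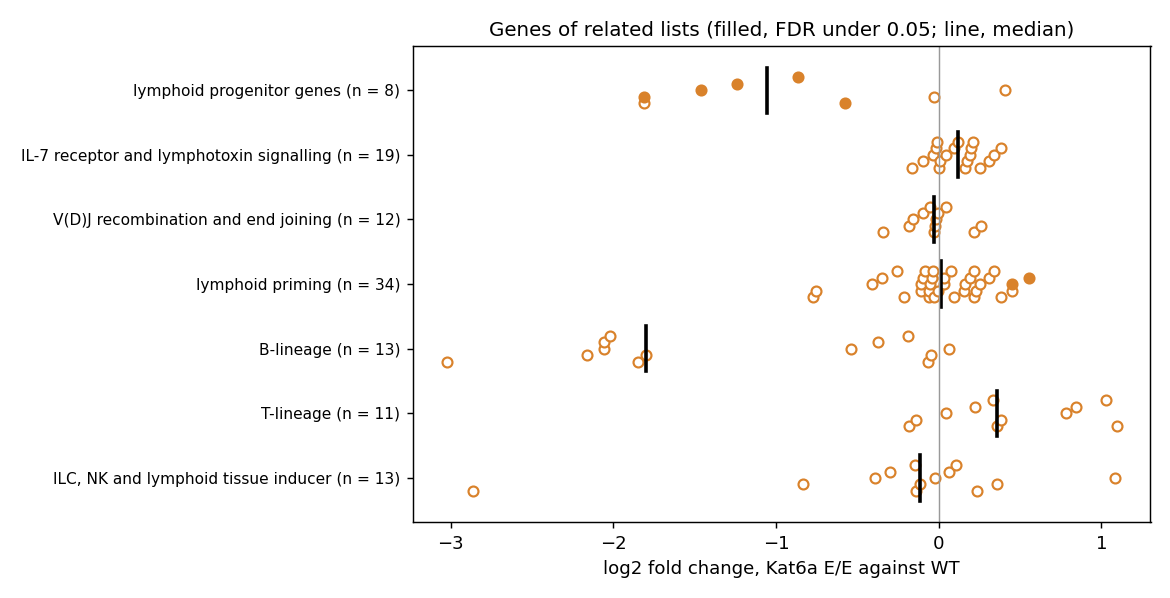
Log2 fold change of *Kat6a E/E* against WT (horizontal axis) for the 8 tested members and for the tested genes of 6 related lists; each point is a gene, filled at FDR<0.05, and the line marks the list's median. The member median is -1.05 and the B-lineage median -1.80, and the medians of the IL-7, V(D)J and priming lists lie between -0.03 and 0.12.

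Of 13 tested B-lineage genes other than the members, 12 had a negative log2 fold change in *Kat6a E/E* against WT, with a median of -1.80, but 0 were called by limma, edgeR or DESeq2. An unadjusted p under 0.05 was found for 5 (38.5%), against 12.5% of all genes. *Cd79a*, which encodes a signalling chain of the B cell receptor, was at 12.1 ± 6.93 CPM in WT, 4.30 ± 3.11 in *Kat6a E/E*, 12.6 ± 2.58 in *Kat6b E/E* and 0.805 ± 1.59 in the double mutant (log2 fold change -2.06, FDR=0.437, in *Kat6a E/E*). The summed level of 4 B lymphocyte markers (*Ms4a1*, *Cd79a*, *Cd79b* and *Pax5*) was 55.5 to 93.9 CPM in WT, 59.6 to 73.7 in *Kat6b E/E*, 41.5 to 63.1 in *Kat6a E/E* and 22.1 to 44.7 in the double mutant, and *Cd79a* was at 0 in 2 double mutant libraries. Of these 4, 3 passed the count filter and 0 were called. The sort excluded cells with B220 on the surface. The part of B lineage cells in the members' levels was not tested. Over the 16 libraries *Ebf1* followed *Cd79a* with r=0.92 and *Rag1* followed it with r=0.88, *Il7r* with r=0.75, *Rag2* with r=0.46 and *Ltb* with r=0.07 (Pearson, log2 CPM, a description).

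**Figure D5:**
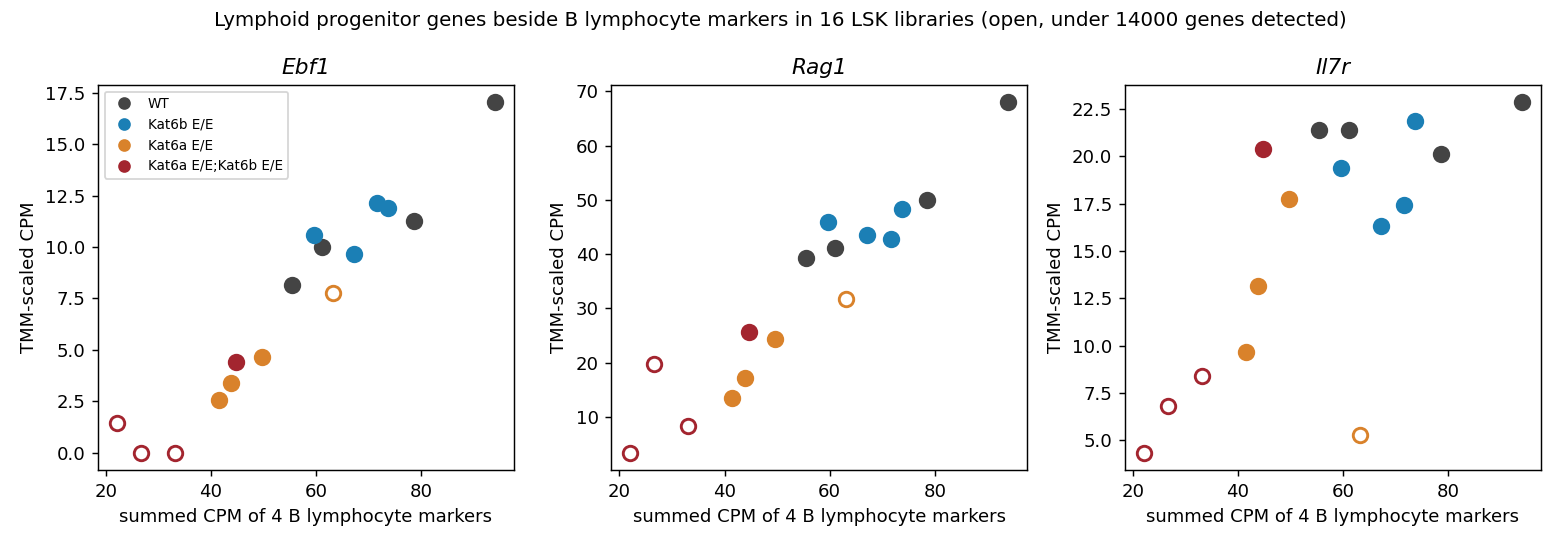
TMM-scaled CPM of *Ebf1*, *Rag1* and *Il7r* (vertical axes) against the summed CPM of 4 B lymphocyte markers (horizontal axes) in the 16 LSK libraries, colored by genotype and open for the 4 libraries with few genes detected. The marker sum runs from 22.1 to 93.9 CPM, libraries with a low sum have little *Ebf1* and *Rag1*, and *Il7r* of *Kat6a E/E* replicate 2 lies at 5.26 CPM with a marker sum of 63.1.

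Of 11 tested T-lineage genes 0 were called in *Kat6a E/E* against WT by limma, edgeR or DESeq2, and the median log2 fold change was 0.36. An unadjusted p under 0.05 was found for 4 (36.4%), against 12.5% of all genes. Of 13 tested genes of innate lymphoid, NK and lymphoid tissue inducer cells, which use *Il7r* and lymphotoxin, 0 were called by the same tools, 3 (23.1%) had an unadjusted p under 0.05, and the median was -0.11. The summed level of 6 T, NK and inducer cell markers was 9.30 to 17.7 CPM in WT and 14.4 to 17.6 CPM in *Kat6a E/E*. In the other lists of cell markers, *Csf1r*, of macrophages and their progenitors, was called higher in *Kat6a E/E* against WT (0.41, FDR=0.0174), but the other 6 of the 7 macrophage markers tested had negative values (median of the 7, -0.69), none of them called. In the same comparison, *Itga2b* of the megakaryocyte list (-0.78, FDR=0.0179), *Cpa3* of the mast cell list (-1.04, FDR=0.000582) and *Gata2*, a stem and progenitor cell factor (-0.57, FDR=0.00353), were called lower. All 5 megakaryocyte markers tested were negative (median -1.38), and no other was called. Of 3 mast cell markers tested, *Cma1* was positive (0.21, FDR=0.960) and *Tpsb2* negative (-1.35, FDR=0.669), neither called. *Gata2* was 1 of 2 negative values among 10 LSK markers, whose median was 0.20 and of which no other was called (*Ly6a* 1.06, FDR=0.114). The remaining marker lists for granulocytes, erythroid cells, hepatocytes and endothelium had 0 called genes in that comparison by limma.

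Between the members themselves, log2 CPM over the 16 libraries was most alike for *Rag1* and *Ccr9* (Pearson r=0.92), *Lta* and *Ebf1* (r=0.89) and *Il7r* and *Rag2* (r=0.87). *Rag1* and *Rag2*, neighbours on the chromosome, had r=0.49, and *Lta* and *Ltb* had r=0.08. The genes whose levels were most like the mean of the 8 tested members were *Rras2* (r=0.95), *Fjx1* (r=0.94), *Fmn2* (r=0.94), *Npnt* (r=0.93) and *Siglec15* (r=0.92). Most like *Il7r* alone were *Gnai1* (r=0.94), *Tcaf2* (r=0.93), *Celf3* (r=0.92), *Smim41* (r=0.92) and *Kazald1* (r=0.92). Genotype, litter and library are shared by all these points, so the correlations are descriptions.

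Whole E9.5 embryos from the same study, 24 libraries of 6 genotypes, held few of these RNAs. *Rag2* had 0 counts in all 24, *Il7r* 1 count in 1 of them, and *Rag1*, *Ccr9*, *Lta*, *Ltb* and *Dntt* at most 6 counts in any embryo. *Ikzf1* was at 5.47 to 16.6 CPM there, against 477 to 541 CPM in LSK cells, which were normalised separately. *Ebf1* was at 9.26 to 23.9 CPM, a range that contains its WT level in LSK cells, in whole embryos that had no sort for blood cells.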

How the data were processed

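RNA-seq of 16 E14.5 fetal liver LSK samples was analysed, with 24 E9.5 embryos for levels only. The deposited files hold raw counts of read pairs per gene. The authors aligned reads to mm39 with Rsubread and counted them over RefSeq genes with featureCounts. The libraries do not keep strand. Samples were grouped by their labels.

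The 26411 genes were matched to a GRCm38.p6 gene table (26359 matched, of which 21030 protein-coding). Protein-coding genes off the Y chromosome that passed filterByExpr were tested (13071), which left out *Dntt*. The permutation test planned for it can only give p=1 with 1 value above 0 and is not reported. The model followed the study's methods as stated: TMM scaling, 4 surrogate variables and voomLmFit, in which litters formed random blocks (correlation 0.331), with robust eBayes and Benjamini-Hochberg adjustment over all genes tested. Fits were run in R 4.3.3 with limma 3.58.1, edgeR 4.0.16 and, as an alternative, DESeq2 1.42.0, and the code was tested on simulated data. Litters numbered 9, of which 2 held 2 genotypes. All 9 members were described, genes of the related lists were named where called or as examples of their role, and the 5 genes most correlated with the members' mean and with *Il7r* were named. Members and lists were chosen with earlier results of these data known. A few list genes are not reported here and were taken out of the lists before counting. Alternatives covered surrogate variables, blocks, scaling, filters, tools and left-out libraries. Leaving out the 4 libraries with few genes, sample weights and a covariate for genes detected were chosen after seeing the data. Totals were 12270376 to 59216547 counts per library, so that 3 counts equal 0.0523 to 0.256 CPM. Floors cover counting error only.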

Additional observations from a re-analysis of the deposited data

Results flagged for a closer look

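A single library stood apart from the other 3 of its genotype, by Dixon's test, in 2 of the 33 groups of 4 libraries looked at, and chance flags about 1 in 20 such groups. *Ccr9* was at 42.3 CPM in *Kat6b E/E* replicate 4, against at most 21.99 CPM in the other 3 *Kat6b E/E* libraries. *Dntt* was at 0.113 CPM, from 2 counts, in *Kat6a E/E* replicate 1 and at 0 in the other 3. With 3 values at 0 any count above 0 is flagged, so the rate of 1 in 20 does not apply to *Dntt*. The cause was not tested in either case.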

How the results depend on the processing

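In *Kat6a E/E* against WT, where 5 members were called, 0 were called with 0 or 2 surrogate variables, without the litter block, with edgeR without surrogate variables, with DESeq2, with the replicate block, with sample weights and with genes detected as covariate, and 1 with edgeR and 4 surrogate variables or with only the 8 libraries compared. The settings with 0 members called 0% to 0.383% of all genes, and those with 1 member 0.627% and 0.125%. The signs were kept in 246 of 248 values of that comparison. In the double mutant against WT, where 0 were called, 2 were called with 6 surrogate variables (0.168% of all genes) and 1 with DESeq2 (2.01%). In the double mutant against *Kat6b E/E* it was 1 with 2 surrogate variables (2.8%) or DESeq2 (1.94%). There it was 2 with 6 surrogate variables (1.62%) or edgeR with 4 (10.2%). In *Kat6a E/E* against *Kat6b E/E* it was 3 with 6 surrogate variables (3.1%) or without the 4 libraries of few genes (5.7%). In that comparison it was 2 without the litter block (5.63%) or with the replicate block (3.79%). With edgeR and 4 surrogate variables it was 4 (9.28%), and with DESeq2 size factors 1 (2.1%). With single libraries left out, the counts ran from 0 to 5 in *Kat6a E/E* against WT, 0 to 5 in the double mutant against WT and against *Kat6b E/E*, 0 to 2 against *Kat6a E/E*, 0 to 4 in *Kat6a E/E* against *Kat6b E/E*, 0 to 1 for additivity and 0 to 0 in *Kat6b E/E* against WT. The shares of all genes called in these fits ran from 0.00756% to 2.75% in *Kat6a E/E* against WT. In *Kat6a E/E* against *Kat6b E/E* they ran from 0.0227% to 9.63%. For the double mutant the highest shares were 16.4% against WT, 22.1% against *Kat6b E/E* and 15.1% against *Kat6a E/E*. For additivity the highest was 10.9%, and in *Kat6b E/E* against WT 0.727%. The sign of *Rag1* in the double mutant against *Kat6a E/E* reversed without double mutant replicate 1, to -1.99 from 0.06, and its values with single libraries left out ran from -1.99 to 0.28. Apart from left-out libraries, the causes were not tested. Replicate numbers did not pair the libraries (r from -0.43 to 0.35, and 3 of 16 libraries correlated best with their own number). *Dntt*, *Lta* and the low *Ebf1* values rest on few counts. The zeros of *Lta* and *Ebf1* were in double mutant replicates 2 and 4, which held 16849951 and 26857333 counts in all. The cause of these zeros was not tested.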
